A study of Rattus norvegicus with 2 samples.

Results

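Scn2b, Scn3b and Scn4b, 3 genes of beta subunits of voltage-gated sodium (Nav) channels, and Fgf11, Fgf12, Fgf13 and Fgf14, the 4 genes of the fibroblast growth factor homologous factors (FHFs), were examined in sympathetic neurons of the rat stellate ganglia. The 7 genes were chosen by gene symbol, and all 7 were found among the 25395 genes with a unique name. Stellate ganglia of Wistar rats (normotensive) and of spontaneously hypertensive rats (SHR, prehypertensive), males of 5 to 6 weeks of age in both strains, were dissociated with collagenase and trypsin and profiled by single-cell RNA sequencing with 3′ droplet chemistry. Each strain is 1 library, and the number of animals behind it is not given in the sources used here. Neither strain carries a transgene or received a treatment in the labels, so strain is the labelled difference, and strain, library preparation and sequencing cannot be told apart.

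Nav channels open on depolarization and carry the upstroke of the action potential. The large alpha subunit forms the pore. The beta subunits are small proteins with a single membrane span and an extracellular immunoglobulin domain, which tune the gating and surface expression of the alpha subunit and also act in cell adhesion. FHFs belong to the fibroblast growth factor family by sequence, but they are not secreted by the classical route. They stay inside the neuron, bind the cytoplasmic tail of the Nav alpha subunit and shift the voltage dependence of inactivation, and so bear on how long a neuron can fire repetitively.

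The deposited data give, for every gene, 1 natural log value per library over its sympathetic neurons, which was converted here to a mean level per 10000 counts of a cell (called level below). Levels summed to 10000 in each library, and 16000 genes were above 0 in Wistar and 14645 in SHR. Neither the number of neurons nor their depth is in these values. The smallest level above 0 was 0.000140 per 10000 in Wistar and 0.000391 in SHR. With 1 library per strain no test, standard deviation or interval could be given, and every difference below is a description of these libraries. A mean over cells also cannot separate fewer neurons with a transcript from less transcript in each neuron. The cluster carried the noradrenergic neuron markers in both libraries. The 7 markers Th, Dbh, Ddc, Slc6a2, Slc18a2, Hand2 and Gata3 summed to 49.7 per 10000 in Wistar and 39.8 in SHR, with none at 0.

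Alternative first exons are a known source of FHF isoforms, which differ at the amino end of the protein. Counts from 3′ ends add up all transcripts of a gene, so the levels below do not resolve these isoforms. The RefSeq start windows of the GRCr8 assembly list 2 separate starts for Fgf12, 2 for Fgf14 and 1 each for Fgf11, Fgf13, Scn2b and Scn4b. The authors' processing used another assembly, Rnor_6.0. The 250 bases before each listed start of the FHF genes with the 3 highest levels are shown, because a single level stands for transcripts from both starts of Fgf12 and both starts of Fgf14. For Fgf13 RefSeq lists 7 proteins, so the 1 listed start may not be its only one. Capitals mark matches, on either strand, to the GC box letters GGGCGG and to the letters TGACG, a core part of the cyclic AMP response element. The TATA box letters TATAAA were searched as well.
Fgf12 window 1, chr11:85501697-85501946, plus strand: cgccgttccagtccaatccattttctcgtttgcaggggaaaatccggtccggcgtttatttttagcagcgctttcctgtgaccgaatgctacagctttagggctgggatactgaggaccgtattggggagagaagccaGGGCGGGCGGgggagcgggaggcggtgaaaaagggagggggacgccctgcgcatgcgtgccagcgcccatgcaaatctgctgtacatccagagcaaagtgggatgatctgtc
Fgf12 window 2, chr11:85801508-85801757, plus strand: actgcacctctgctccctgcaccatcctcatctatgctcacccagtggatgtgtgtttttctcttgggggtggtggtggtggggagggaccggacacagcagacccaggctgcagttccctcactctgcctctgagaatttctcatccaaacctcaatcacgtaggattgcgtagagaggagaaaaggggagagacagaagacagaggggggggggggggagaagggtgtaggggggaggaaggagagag
Fgf13 window 1, chrX:142423537-142423786, minus strand: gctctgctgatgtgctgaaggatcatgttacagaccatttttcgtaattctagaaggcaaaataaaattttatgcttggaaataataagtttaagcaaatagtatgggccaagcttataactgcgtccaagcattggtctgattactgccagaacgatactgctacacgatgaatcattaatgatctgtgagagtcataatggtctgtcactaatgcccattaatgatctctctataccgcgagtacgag
Fgf14 window 1, chr15:108086413-108086662, minus strand: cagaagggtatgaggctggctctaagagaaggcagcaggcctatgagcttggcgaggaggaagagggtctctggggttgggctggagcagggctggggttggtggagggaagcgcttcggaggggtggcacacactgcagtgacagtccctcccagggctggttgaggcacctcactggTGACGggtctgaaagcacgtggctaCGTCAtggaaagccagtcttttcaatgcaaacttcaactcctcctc
Fgf14 window 2, chr15:107680746-107680995, minus strand: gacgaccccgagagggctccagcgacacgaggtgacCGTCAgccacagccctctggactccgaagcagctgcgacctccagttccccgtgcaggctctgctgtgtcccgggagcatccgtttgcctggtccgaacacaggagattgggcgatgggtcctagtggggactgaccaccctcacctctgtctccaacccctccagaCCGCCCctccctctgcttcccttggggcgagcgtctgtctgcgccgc
The sequence before the first Fgf12 start held 2 GC box matches that overlap each other, and that before the second held no match to any of the 3 motifs. Their CpG numbers were 17 and 3, at GC contents of 58.0% and 57.6%. The first Fgf14 start had 2 TGACG matches and the second had 1 TGACG match and 1 GC box match. The listed Fgf13 start had no match and a GC content of 38.8%, against a median of 51.2% over all 33469 RefSeq windows of this length. Of those windows, 30.5% held a GC box match, 18.2% a TGACG match and 12.9% a TATAAA match, so such matches are common and are given only as a description.

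Among the 3 beta subunit genes, Scn3b was the abundant transcript. Scn2b was far lower, and Scn4b was near the floor of the data. Scn3b encodes a beta subunit that associates with the alpha subunit without a covalent bond. Its level was 4.97 per 10000 in Wistar and 3.81 in SHR. These levels ranked 253 and 388 among all genes, above 98.4% of the genes above 0 in Wistar and 97.4% in SHR. The change was -23.3%, a difference of log2(1 + level) of -0.31, SHR minus Wistar. Of the 7621 genes averaging at least 0.1 per 10000 over both libraries, 65.6% were lower in SHR, so over all these levels a lower level was the common direction. Among the 327 genes whose average lay within 1.5 times that of Scn3b, the share lower in SHR was 36.1%. Near the level of Scn3b a lower level was therefore the less common direction.

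Scn2b encodes a beta subunit that is tied to the alpha subunit by a disulfide bond. Levels of 0.0301 (Wistar) and 0.0336 (SHR) per 10000 gave a ratio of 1.11. Scn3b was 165 times as abundant as Scn2b in Wistar and 114 times in SHR. Scn3b was far above Scn2b in both libraries. Among the 1322 genes averaging within 1.5 times the level of Scn2b, 24.9% were higher in SHR.

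Scn4b, whose product is also disulfide-linked and is known for its part in resurgent sodium current, had a level of 0.000278 per 10000 in Wistar and was listed at 0 in SHR. Only 2.96% of the genes above 0 in Wistar had a lower level. Of the 790 genes within 1.5 times this Wistar level, 69.7% were listed at 0 in SHR. The listing at 0 was therefore shared by most genes of that level, and no fold is given. The Wistar level of Scn4b was also under the smallest level above 0 in SHR, 0.000391 per 10000. Its 0 in SHR thus says little about Scn4b. On GRCr8, Scn2b and Scn4b lie next to each other with no annotated gene between them. Scn3b made up 99.4% of the summed level of the 3 genes in Wistar and 99.1% in SHR, and that sum was 5.00 per 10000 in Wistar and 3.85 in SHR.

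**Figure D1:**
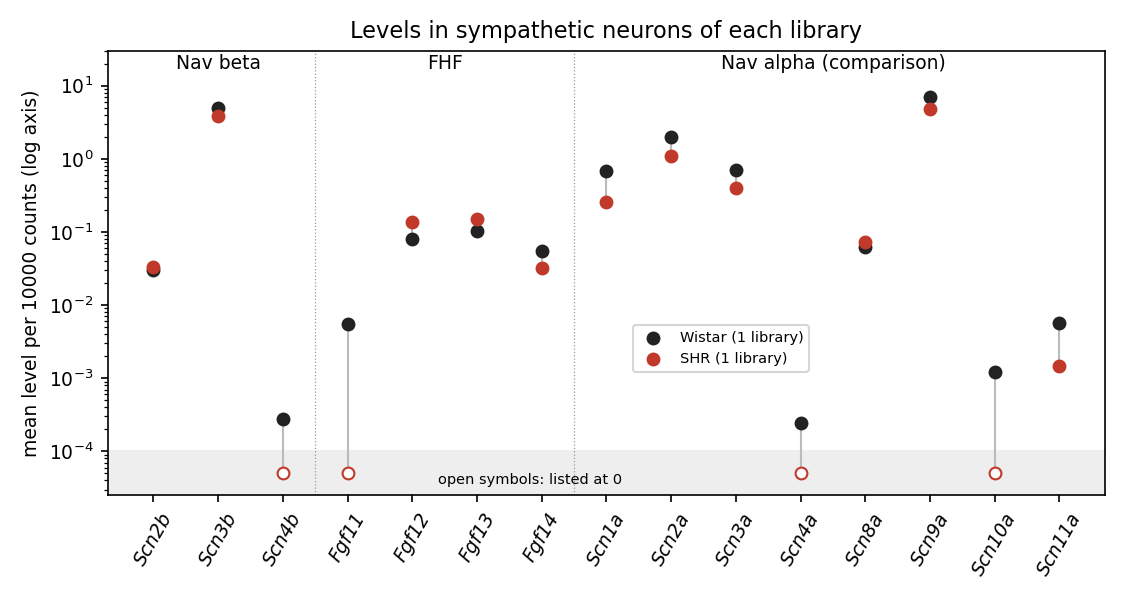
Mean level per 10000 counts (log axis) of the 3 Nav beta genes, the 4 FHF genes and 8 Nav alpha genes in the sympathetic neurons of the Wistar library (black) and the SHR library (red), with 1 value per library and no error. Scn3b, at 4.97 and 3.81, stands far above the other beta genes and the FHF genes; open symbols in the grey strip mark genes listed at 0, among them Scn4b and Fgf11 in SHR.

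The FHF genes were low in both libraries and did not move in one direction. Fgf13 had the highest level of the 4, at 0.104 (Wistar) and 0.151 (SHR) per 10000, a ratio of 1.45. The encoded protein is known to bind microtubules as well as Nav channels. Fgf12 went from 0.0791 per 10000 (Wistar) to 0.135 (SHR), a ratio of 1.71. On the log2(1 + level) scale, which compresses low levels, these differences were 0.060 for Fgf13 and 0.073 for Fgf12.

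Fgf14, whose product is known from the axon initial segment, went the other way. It stood at 0.0546 per 10000 (Wistar) and 0.0319 (SHR), a ratio of 0.585 and a log2(1 + level) difference of -0.031. Centring the log2(1 + level) differences on the median gene turns this value to 0.021 by construction, because a constant is added to a gene of low level. The median ratio of SHR to Wistar over the genes averaging at least 0.1 per 10000 and above 0 in both libraries was 0.863, and the ratio of Fgf14 was below it. Among the 1435 genes averaging within 1.5 times the level of Fgf14, 48.0% had a mean lower in SHR by at least 1.5-fold, so the lower level of Fgf14 was a common outcome at this abundance. Fgf11 had a level of 0.00557 per 10000 in Wistar and was listed at 0 in SHR. Of the 1075 genes within 1.5 times this Wistar level, 24.2% were listed at 0 in SHR.

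The direction of Fgf12 and Fgf13 was the less common one. Of the 3307 genes averaging 0.05 to 0.2 per 10000, the range that holds both, 24.7% were higher in SHR. A mean higher by at least 1.5-fold, which Fgf12 had and Fgf13 did not, was found for 5.29% of them, and a mean lower by at least 1.5-fold for 41.2%. Over the 7621 genes averaging at least 0.1 per 10000, the corresponding shares were 5.22% and 26.5%. Fgf12 averaged 0.107 and Fgf13 0.127 per 10000, just past that minimum, and Fgf14 (0.0433) and Scn2b (0.0318) were below it. In the Wistar library alone, Fgf12 was under it.

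**Figure D2:**
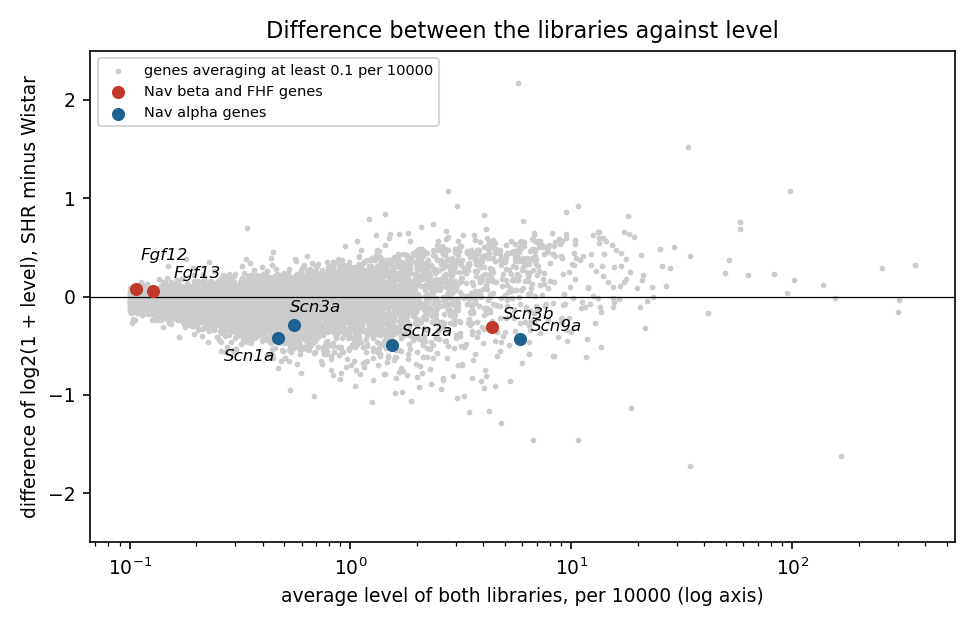
Difference of log2(1 + level), SHR minus Wistar, against the average level of both libraries (log axis) for the 7621 genes averaging at least 0.1 per 10000 (grey), with the Nav beta and FHF genes past that minimum in red and the Nav alpha genes in blue. Fgf12 and Fgf13 sit above 0 at the low end of the axis, and Scn3b, at -0.31, lies below 0 with Scn1a, Scn2a, Scn3a and Scn9a.

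The makeup of the FHF transcripts differed between the libraries. Fgf13 held 42.7% of the FHF sum in Wistar and 47.5% in SHR, and Fgf12 held 32.5% and 42.5%. The share of Fgf14 was 22.4% in Wistar and 10.0% in SHR. These shares are taken within a library and do not depend on how its total was set. Fgf12 was 1.45 times as abundant as Fgf14 in Wistar and 4.24 times in SHR, while Fgf13 stood at 1.31 times Fgf12 in Wistar and 1.12 times in SHR. Summed, the FHF genes reached 0.243 (Wistar) and 0.318 (SHR) per 10000, a change of 30.9%.

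In Wistar the levels ran from Scn3b through Fgf13, Fgf12, Fgf14, Scn2b and Fgf11 down to Scn4b. The SHR library had the same order except that Scn2b stood just above Fgf14, at 0.0336 against 0.0319 per 10000, and that Fgf11 and Scn4b were both at 0. Without replicates it cannot be said which neighbours in this order differ beyond their spread. Over both families 4 of the 7 genes were lower in SHR (Scn3b, Scn4b, Fgf11 and Fgf14) and 3 were higher. With the centring, by construction, Scn3b alone was lower. Scn4b is counted only through its listing at 0, and its Wistar level was under the smallest SHR level above 0. The share lower in SHR was 68.1% of the 16389 genes above 0 in either library. The median log2(1 + level) difference of the 7 genes was -0.00040, against -0.0076 over those 16389 genes. That median is the value of Scn4b, which on this scale lies close to 0 whatever its ratio, so the comparison says little.

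Nav alpha genes served as a comparison, since their products are what the beta subunits and FHFs bind. The 8 alpha genes Scn1a, Scn2a, Scn3a, Scn4a, Scn8a, Scn9a, Scn10a and Scn11a summed to 10.3 per 10000 in Wistar and 6.68 in SHR. Relative to that sum, the level of Scn3b was 48.2% in Wistar and 57.1% in SHR. The 4 FHF genes together were 2.36% of the alpha sum in Wistar and 4.76% in SHR, a ratio between the libraries of 2.02. Both the numerator and the denominator moved, since the FHF sum had a ratio of 1.31 and the alpha sum one of 0.648.

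The partner genes did not all shift alike. Scn3b stood at 0.722 times the level of Scn9a, the most abundant alpha transcript, in Wistar and at 0.788 times in SHR. Against Scn1a its level was 7.28 times as high in Wistar and 15.0 times in SHR. Against Scn8a, the only alpha gene of the 8 with a higher level in SHR, the ratio went from 80.5 to 51.7. Scn8a was close to the FHF genes in abundance, at 0.0618 per 10000 in Wistar and 0.0737 in SHR. Fgf13 was 1.68 times as high as Scn8a in Wistar and 2.05 times in SHR, whereas Fgf14 went from 0.884 times to 0.433 times.

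**Figure D3:**
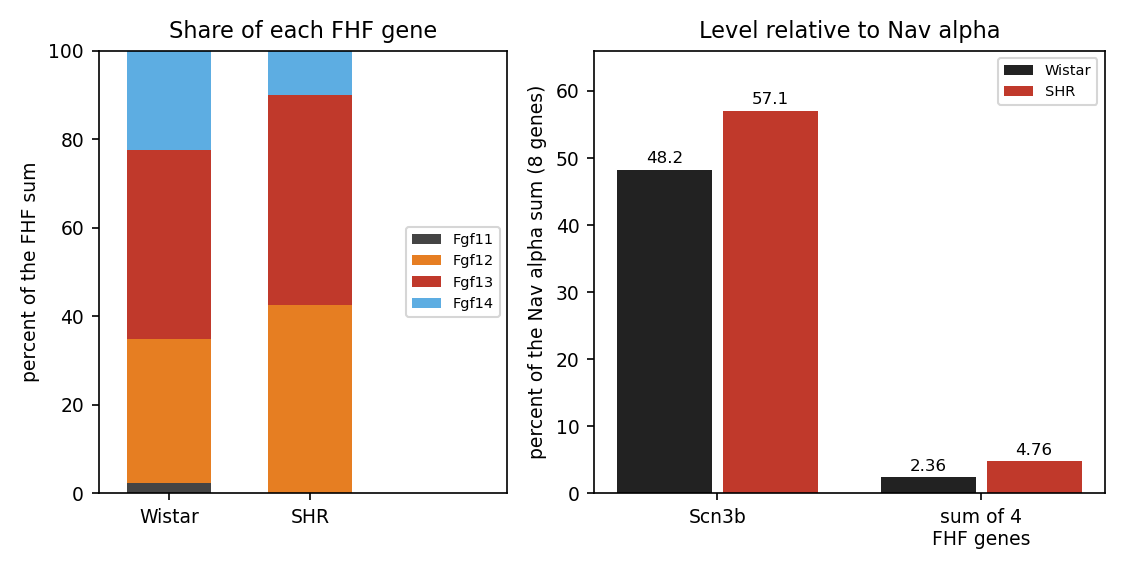
Left, the share of each FHF gene in the sum of the 4 FHF genes (percent, stacked bars) in each library; right, the level of Scn3b and the FHF sum as a percent of the summed level of 8 Nav alpha genes (Wistar black, SHR red; 1 library each, no error). Fgf14 takes 22.4% of the FHF sum in Wistar and 10.0% in SHR, and the FHF sum goes from 2.36% to 4.76% of the alpha sum.

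Gene span moved with the direction of change across the transcriptome, and the members were set beside it. Spans were taken from GRCr8 by gene name for 7291 of the 7621 genes past the minimum (95.7%) and used only as ranks, in 10 groups of nearly equal size. The share of genes higher in SHR was 73.0% in the group with the shortest spans and 14.4% in the group with the longest. Fgf12 and Fgf13 were both in the group with the longest spans, where 105 of 730 genes were higher in SHR. Fgf12 is in this set only through its SHR level, since its Wistar level is under the minimum. Fgf14, which was lower in SHR, averaged under the minimum and was therefore not placed in a group. The minimum thus kept the FHF genes that were higher in SHR and left out those that were lower, so their place in this group supports nothing about the family. Scn3b was in group 5, in which 33.2% of the genes were higher in SHR. The part of gene span in these differences was not tested.

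**Figure D4:**
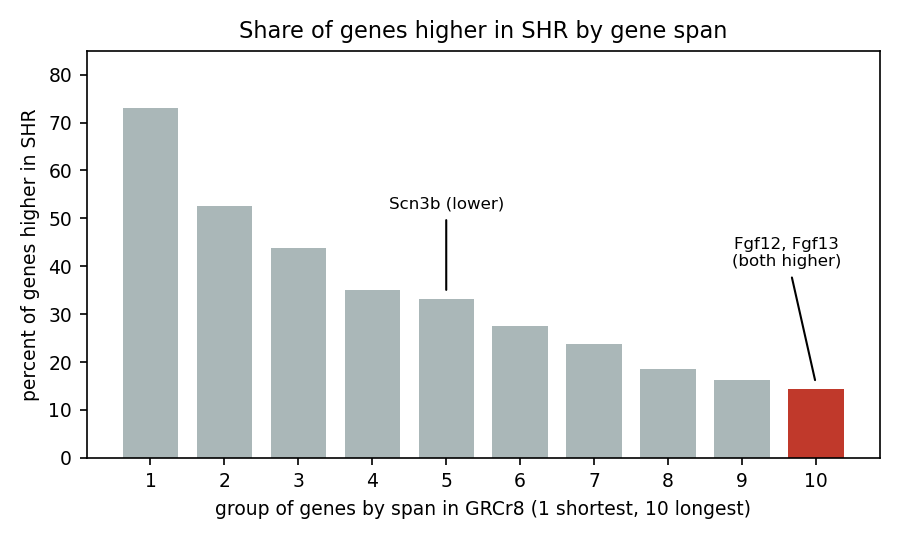
Percent of genes with a higher level in SHR in 10 groups of genes ordered by span in GRCr8, from 1 (shortest) to 10 (longest), among genes averaging at least 0.1 per 10000. The bars go down from 73.0% to 14.4%. Fgf12 and Fgf13, both higher in SHR, belong to the last group (red) and Scn3b, lower in SHR, to group 5. Fgf12 passed the minimum only through its SHR level, and Fgf14, lower in SHR, did not pass it and has no group.

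Transcripts of other cell types in the neuron cluster also differed between the libraries. Of the 16389 genes above 0 in either library, 68.1% were lower in SHR, so a lower level by itself was the common direction here too. All 8 satellite glia and Schwann cell markers were lower in SHR and summed to 8.21 per 10000 in Wistar and 2.80 in SHR. All 5 fibroblast markers were lower (sums 1.02 and 0.201), as were all 4 endothelial markers with a line (0.103 and 0.0345) and 4 of 5 immune markers (1.10 and 0.384). Of 4 smooth muscle markers 2 were lower (0.107 and 0.0684), with Rgs5 at 0 in SHR. No other marker of these lists was at 0. Scn3b, Fgf14, Fgf11 and Scn4b were lower in the library with less of these transcripts, and Fgf12, Fgf13 and Scn2b were higher in it. For Scn4b this rests on its listing at 0, with a Wistar level under the smallest SHR level above 0. Of the sympathetic neuron markers 6 of 7 were lower in SHR, beside 65.6% of the 7621 genes averaging at least 0.1 per 10000. That share is over genes of all levels past the minimum. Relative to the sum of the neuron markers, Scn3b was at 10.02% in Wistar and 9.57% in SHR, and the FHF sum was at 0.490% and 0.799%. The part of other cell types and of the neuron markers in these results was not tested.

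Partner genes of the channel complex were examined as lists. Of 12 genes of the axon initial segment and of adhesion partners of Nav channels, 11 had a line and 10 averaged at least 0.1 per 10000. Of these 10, 9 were lower in SHR, beside 65.6% of all genes past that minimum, and 6 were lower by at least 1.5-fold, beside 26.5%. Those shares are over genes of all spans and of all levels past the minimum. Several genes of the list were well above that minimum, such as Ank2 and Sptan1, which averaged 5.95 and 5.96 per 10000. Near the level of Scn3b, 36.1% of 327 genes were lower in SHR. The direction of change moved with gene span and with level, and the part of either in this list was not tested. For these 10 the median log2(1 + level) difference was -0.29, against -0.052 over the 7621 genes. Ank3, which encodes ankyrin-G, the scaffold that anchors Nav channels at the initial segment, had levels of 3.15 in Wistar and 1.79 in SHR. Cntn1, an adhesion protein that interacts with beta subunits, was the one member with a higher level, at 0.158 and 0.1997 per 10000.

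Beta subunits are cut by secretases. Of 8 protease genes, 5 passed the minimum, 4 of them lower and 1 higher in SHR, and none by 1.5-fold. With 65.6% of all genes past the minimum lower in SHR, 4 of 5 is near the background. The median log2(1 + level) difference of the 5 was -0.061. Bace1, the beta-secretase gene, had levels of only 0.0142 and 0.00701 per 10000. Psenen, a gamma-secretase subunit, was the gene with a higher level, at 1.15 in Wistar and 1.43 in SHR.

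Mapk8ip2, which encodes the scaffold IB2, a known FHF partner, had levels of 1.89 per 10000 in Wistar and 1.74 in SHR. Mapk8ip2 transcripts therefore outnumbered the FHF sum in both libraries.

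The genes most like each member were sought among 68 genes of the members and of the fixed lists, by the distance of their log2(1 + level) values over the 2 libraries. Fgf12 and Fgf13 were each the nearest gene of the other, at a distance of 0.038. The second nearest was Scn8a for Fgf12 (0.084) and Cntn1 for Fgf13 (0.092). Scn3b was nearest to L1cam, at 0.33, and then to Scn9a, at 0.49. With 2 values per gene this likeness says mostly that the levels are alike.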

How the data were processed

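The data are from 1 Wistar and 1 SHR library of dissociated stellate ganglia (10x Genomics 3′ chemistry). Per the submitters' processing notes, Cell Ranger 3.0.2, Seurat 3 and the Rnor_6.0 assembly were used. Filters on cells and the treatment of doublets are not given in the sources used here. For each library the authors deposited mean counts of the sympathetic neuron cluster, scaled to 10000 per cell and given as the natural log after adding 1. A table of the authors' own comparison of the strains (fold changes, p-values and shares of cells) was not used.

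Values were converted by exp(value) - 1 with Python 3.11.15 and pandas 2.3.3, and names listed more than once (4 lines) were dropped. The deposited log scale is a pseudocount of 1. Counts and medians over genes used an average of at least 0.1 per 10000, and a 1.5-fold difference of means stood in place of a test. A count of molecules at 3′ ends is not divided by transcript length. The scripts recovered known fold changes put on the real levels without noise, which checks the calculation only.

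The named genes are the 7 members, the Nav alpha genes, genes of the partner, FGF and receptor lists, and the 2 genes nearest to each member above 0.1 per 10000. Markers were listed as well. Members and lists were chosen with earlier results of these data known, and the ranges of like level and the groups by gene span after the members' levels were seen. Some genes of the lists, and the list of channel regulators as a whole, are not reported here. Alternatives were another pseudocount, another total, centring and other minimums.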

Additional observations from a re-analysis of the deposited data

How the results depend on the processing

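Each strain has 1 library, so no result has a replicate check and depth is unknown; the lower a level, the less its difference can be relied on. No paired analysis was possible because there is a single library on each side. With differences centred on the median gene averaging at least 0.1 per 10000, each gene gains 0.052, which by construction turns the sign of any gene near the floor that is lower in SHR, whatever its ratio. The differences of Scn4b, Fgf11 and Fgf14 then became 0.052, 0.044 and 0.021, and 1 of the 7 genes, Scn3b, was lower in SHR in place of 4. A library total that omits mitochondrial and ribosomal protein genes changed no sign among the 7 genes. The log2 ratio of the summed levels, SHR to Wistar, went from -0.38 to -0.34 for the beta genes and from 0.39 to 0.43 for the FHF genes. The median difference of the 3 genes that averaged at least 0.1 per 10000 was 0.060, a value that supports nothing, since Fgf12 passed the minimum only through its SHR level. It became 0.30 with a pseudocount of 0.1, 0.079 with that other total, 0.11 with the centring, and -0.00040 with no minimum, which takes in all 7 genes. The last of these is the value of Scn4b. Among single genes, the pseudocount of 0.1 moved 6 of the 7 differences by 0.005 or more and the other total moved 4; a pseudocount cannot change a sign. Genes past a 1.5-fold difference of means numbered 398 higher and 2021 lower in SHR, 172 and 195 with a minimum of 1 per 10000, and 545 and 2040 with the other total. The cause of the difference with the higher minimum was not tested.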

Other observations

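The secreted members of the FGF family, which signal through receptors at the cell surface, were set beside the FHF genes as a list. Of the 25395 genes with a unique name, 16000 were above 0 in Wistar and 14645 in SHR, and 7621 averaged at least 0.1 per 10000. Of 17 secreted FGF genes with a line, 9 were at 0 in Wistar and 12 in SHR, and 1 averaged at least 0.1 per 10000. This was Fgf1, an FGF without a classical signal peptide, with levels of 2.98 per 10000 in Wistar and 2.80 in SHR, above every FHF gene in both libraries. Next came Fgf21 in Wistar, at 0.0105 per 10000, and Fgf16 in SHR, at 0.00306.

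The 5 FGF receptor genes were low in the neuron cluster, with a highest level of 0.0154 per 10000, that of Fgfrl1 in SHR. Fgfr1 was at 0.0128 in Wistar and 0.00262 in SHR, and Fgfr2 and Fgfr4 were listed at 0 in SHR. The 5 receptor genes summed to 0.0229 per 10000 in Wistar and 0.0216 in SHR, under the FHF sum of 0.243 and 0.318.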
